A study of Mus musculus with 6 samples.

Results

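The E2F transcription factors are encoded by 8 mouse genes, E2f1 to E2f8, and all 8 were measured. They were found by exact gene symbol in the platform annotation, which gave 16 of 45037 probe sets, and each of the 16 is described here. No filter on low values was used. RNA came from C57BL/6 mouse CD4+CD25- lymph node T cells cultured towards a regulatory T cell (Treg) fate. They grew for 2 days on plate-bound antibodies to CD3 (2 µg/ml) and CD28 (1 µg/ml). TGF-β1 was added at 5 ng/ml and IL-2 at 200 U/ml. In 3 samples a retrovirus brought in E47-ER, and in 3 control samples it brought in bHLH-ER. E47 is a basic helix-loop-helix factor made from the Tcf3 gene that binds E-box DNA. ER is an estrogen receptor domain that tamoxifen releases into the nucleus.

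Transduction took place on day 1, and cells sorted as CD4+Thy1.1+ then spent 6 hours on the same antibodies with IL-2 and 1 µM tamoxifen. Both groups received tamoxifen, so effects of the constructs before and after its addition cannot be told apart. The content of the bHLH-ER construct is not described in the sources used here. The samples came from 3 independent experiments, each with 1 E47 and 1 control sample. Replicate 1 pooled 3 mice aged 7 weeks, replicate 2 pooled 3 mice aged 8 weeks and replicate 3 pooled 4 mice aged 9 weeks.

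E2F factors bind the promoters of genes needed for DNA replication and switch them on or off as a cell passes from G1 into S phase. E2F1, E2F2 and E2F3 mainly activate, and the retinoblastoma protein holds them back until cyclin-dependent kinases release them. E2F4 and E2F5 mainly repress, together with the retinoblastoma relatives p107 and p130. E2F6 represses without these pocket proteins, through Polycomb complexes. E2F7 and E2F8 repress without a DP partner. In mice lacking E2f2, T cells divide more readily and autoimmunity develops.

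The response to E47 was present in all 3 pairs. Id2 and Id3, which encode inhibitors of E proteins, were 6.24-fold and 3.10-fold higher in E47 than in control samples (limma, paired fit over all genes, adjusted p = 0.00145 and 0.00376). Tcf3, the introduced gene, had a log2 fold change of -0.01 (SE 0.08), and whether its probes match the cloned sequence was not analysed here. Of the T cell markers, Cd4 averaged 8.09 ± 0.11 in E47 and 8.07 ± 0.16 in control samples on the log2 scale (SD, n = 3 each). Cd3g and Cd2 had log2 fold changes of 0.39 and 0.28 and Cd5 of -0.31, each with 1 sign in all 3 pairs, and none of the 6 markers passed. Foxp3, the lineage factor of Treg cells, ran from 6.07 to 7.83 in E47 and from 6.29 to 8.16 in control samples, highest in replicate 2 of each group. Within the pairs Foxp3 was lower in E47 in 3 of 3, with a log2 fold change of -0.20 (SE 0.09), and did not pass. The titles call the samples biological replicates. The error of the paired fit rests on how far the difference between E47 and control varied over the 3 experiments.

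E2f2 was the E2F gene that rose with E47, and both of its probe sets passed the test. With probe set 1436434_at, log2 intensities were 9.29, 10.21 and 8.96 in E47 replicates 1 to 3, against 8.38, 8.84 and 7.91 in control replicates 1 to 3. With probe set 1455790_at they were 8.99, 9.79 and 8.82 in E47 and 8.06, 8.38 and 7.85 in control replicates 1 to 3. All E47 samples lay above all control samples in both probe sets, and replicate 2 was the highest of each group. The log2 fold changes were 1.11 (SE 0.11, 95% interval 0.83 to 1.39) and 1.10 (SE 0.12, 95% interval 0.80 to 1.40), or 2.16-fold and 2.15-fold. In limma's paired fit over all probe sets the adjusted p was 0.0345 and 0.0479, and over all genes E2f2 had 0.00928.

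The pairs of 1436434_at gave log2 differences of 0.91, 1.37 and 1.04 in experiments 1 to 3, and those of 1455790_at gave 0.92, 1.41 and 0.97. The difference thus had one direction and a like size in both probe sets, which read the same RNA samples and are no independent replicates of each other. Without the experiment as a term, the spread between experiments entered the error and neither probe set passed (SE 0.35 and 0.26, adjusted p = 0.759 and 0.462). In the gene fit without that term, E2f2 had an adjusted p of 0.609. Without experiment 2 the probe sets had adjusted p = 0.188 and 0.189 and the gene 0.0396, and without experiment 3 the probe sets had 0.381 each and the gene 0.0948.

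Called probe sets numbered 2 of 16 in the family, both higher, where 0.271% of all probe sets were called in either direction, 0.238% higher and 0.0333% lower. Without the experiment as a term, 0 of 16 were called, where 0.115% of all probe sets and 0.247% of all genes were. In the gene fit 1 of 8 E2F genes was called, where 1.14% of all genes were called, 0.781% higher and 0.363% lower. Groups did not overlap in 2 of 16 probe sets, close to the 11.2% among all probe sets. In 8 of the 16, E47 was higher in all 3 pairs, where 13.5% of all probe sets were, and in 0 it was lower in all 3 pairs, where 17.5% were. Some of the 16 share a gene. Counted by gene, E47 was higher in all 3 pairs in 5 of 8, where 2615 of 18193 genes were. The median log2 fold change was 0.09 over the 16 probe sets and -0.02 over all probe sets. It was 0.002 over all probe sets brighter than the median, among which 14 of the 16 lay. Taken by the brightest probe set, 8 of 8 E2F genes had a log2 fold change above 0, as did 42.3% of all genes.

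**Figure D1:**
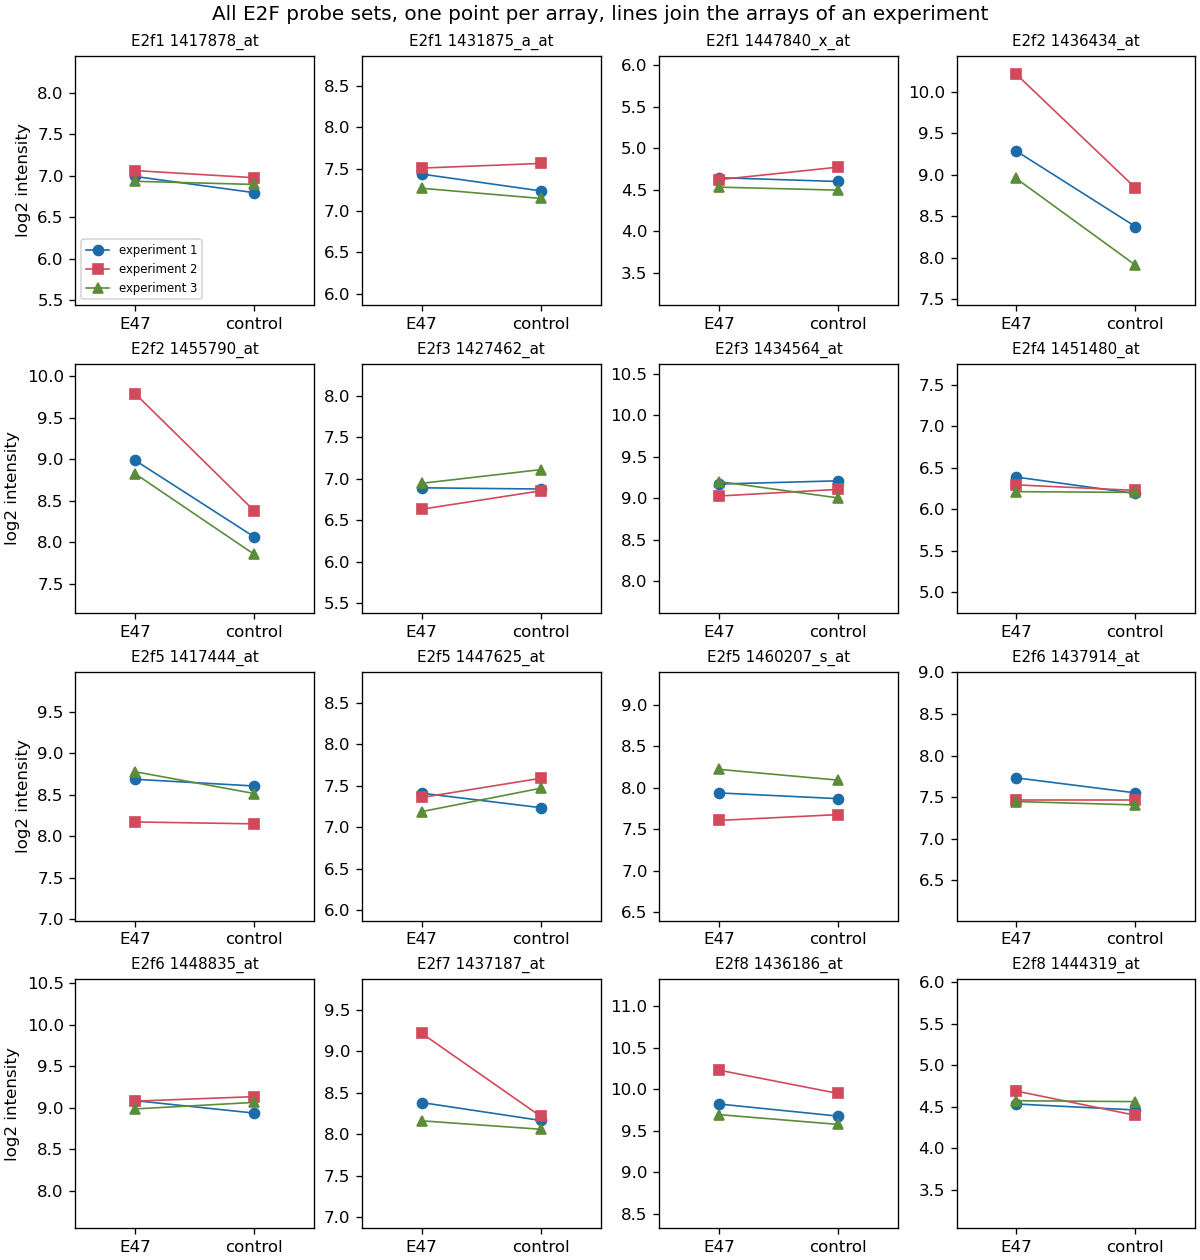
Log2 intensity of each E2F probe set on each of the 6 arrays, E47 left and control right, with a line joining the 2 arrays of an experiment and the same height of scale in every panel. E2f2 separates the groups in both panels, and E2f7 stands out through E47 replicate 2 at 9.22.

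E47 recognises E-boxes (letters CANNTG), so the bases before the annotated starts of E2f2 are shown with the E-boxes in capitals. The windows of E2f7 and E2f3 follow, E2f7 with the next largest difference and E2f3 with 1 of the smallest, and there the capitals mark an E2F motif. That motif was searched as TTTCCCGC, TTTCGCGC, TTTGCCGC and TTTGGCGC on both strands, and the letters of CANNTG read the same on both. Sequences are RefSeq's for GRCm38.p6, 5′ to 3′ along the gene, and end at the base before the annotated start.
E2f2, chr4:136172024-136172273, plus strand: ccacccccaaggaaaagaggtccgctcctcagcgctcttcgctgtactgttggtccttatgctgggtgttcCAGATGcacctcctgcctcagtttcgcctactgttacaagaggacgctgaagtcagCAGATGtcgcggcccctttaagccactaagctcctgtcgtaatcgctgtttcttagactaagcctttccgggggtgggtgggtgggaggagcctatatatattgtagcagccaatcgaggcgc
E2f2, internal start, chr4:136180532-136180781, plus strand: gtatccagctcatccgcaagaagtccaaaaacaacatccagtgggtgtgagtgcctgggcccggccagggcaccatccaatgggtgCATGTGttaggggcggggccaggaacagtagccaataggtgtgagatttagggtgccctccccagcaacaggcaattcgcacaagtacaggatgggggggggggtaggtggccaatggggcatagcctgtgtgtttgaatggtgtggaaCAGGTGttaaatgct
E2f7, chr10:110745189-110745438, plus strand: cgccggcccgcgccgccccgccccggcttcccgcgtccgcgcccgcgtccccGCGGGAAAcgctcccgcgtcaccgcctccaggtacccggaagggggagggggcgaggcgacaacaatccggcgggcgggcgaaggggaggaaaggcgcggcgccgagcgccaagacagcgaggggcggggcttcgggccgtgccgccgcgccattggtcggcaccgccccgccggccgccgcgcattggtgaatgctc
E2f3, chr13:29986064-29986313, minus strand: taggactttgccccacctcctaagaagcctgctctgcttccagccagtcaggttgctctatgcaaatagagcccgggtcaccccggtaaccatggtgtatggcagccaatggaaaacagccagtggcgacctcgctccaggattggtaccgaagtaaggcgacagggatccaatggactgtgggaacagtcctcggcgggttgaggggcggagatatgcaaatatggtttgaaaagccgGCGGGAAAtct

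The window at the outermost start of E2f2 held 2 E-boxes, both CAGATG, at 179 and 123 bases before the start. The window of the internal start held CATGTG at 164 and CAGGTG at 15 bases before it. An E2F motif, TTTGGCGC, began 40 bases into the transcribed part of E2f2 (chr4:136172313-136172320). GCGGGAAA, an E2F motif read on the other strand, lay 198 bases before the start of E2f7 and 11 bases before that of E2f3. The reference held 8 windows for 6 of the genes, without E2f4 and E2f5, and those of E2f1 and E2f8 lay 466 and 477 bases inside the outermost annotated start.

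Before the start, an E-box was found in 4 of the 8 windows, those of E2f2, E2f3 (internal start) and E2f6, and in 66.2% of all 32851 windows of RefSeq genes. An E2F motif was found there in 2 of the 8 and in 1.86% of all windows. A match describes the letters of a window and shows no binding.

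Among the other activators, E2f1 was measured by 3 probe sets and E2f3 by 2, and none passed. E2F1 drives replication genes and can also trigger cell death. Its brightest probe set, 1431875_a_at, gave 7.44, 7.51 and 7.27 in E47 and 7.24, 7.57 and 7.14 in control replicates 1 to 3. The groups overlapped, and the log2 fold change was 0.09 (SE 0.09, 95% interval -0.14 to 0.31, adjusted p = 0.796 in limma's paired fit). Probe set 1417878_at gave 6.99, 7.06 and 6.93 in E47 and 6.79, 6.97 and 6.89 in control replicates 1 to 3, higher in 3 of 3 pairs with a log2 fold change of 0.11. The third, 1447840_x_at, was dim, with 41.5% of all probe sets below it, and ran from 4.53 to 4.65 in E47 and from 4.50 to 4.77 in control samples. The ending _x_at marks probes that can match other transcripts.

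E2F3 is needed for normal proliferation of mouse fibroblasts. Probe set 1434564_at gave 9.17, 9.03 and 9.20 in E47 and 9.21, 9.11 and 9.00 in control replicates 1 to 3, a log2 fold change of 0.03 (95% interval -0.21 to 0.26). Probe set 1427462_at gave 6.89, 6.63 and 6.94 in E47 and 6.87, 6.85 and 7.11 in control replicates 1 to 3, a log2 fold change of -0.12 (95% interval -0.35 to 0.10). The groups overlapped in both, and the probe sets differed in sign. For every probe set of E2f1 and E2f3 the upper end of the interval stayed at or below 0.32, under the lower end of 0.80 for E2f2.

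**Figure D2:**
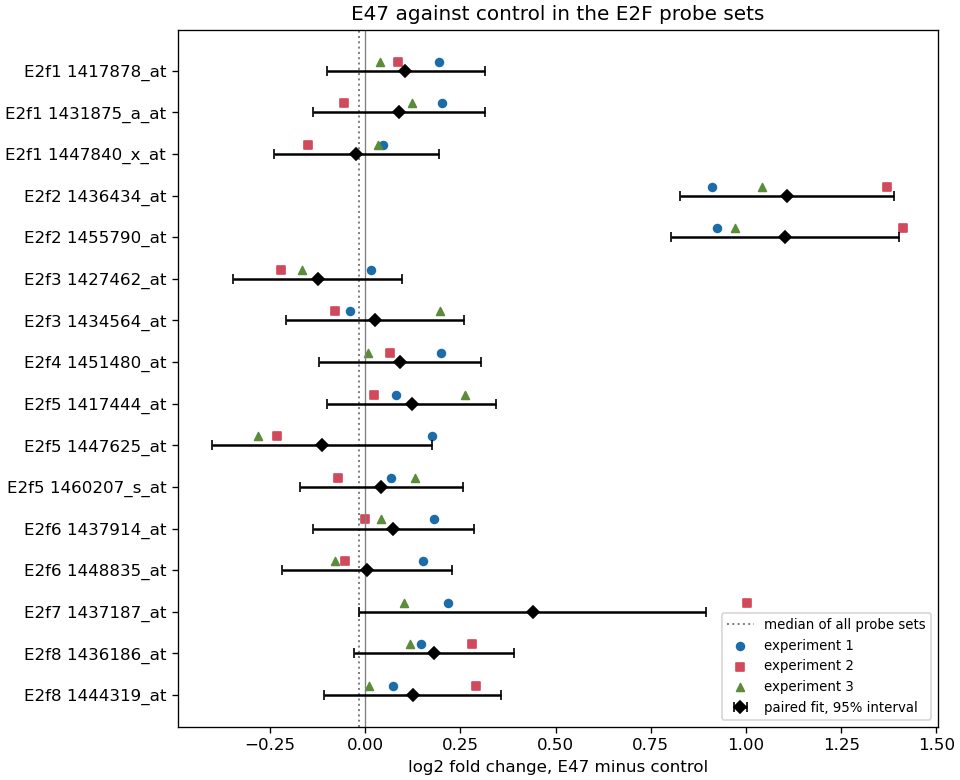
Log2 fold change of E47 over control for the 16 E2F probe sets, with diamonds and bars for the estimate and 95% interval of the paired fit, coloured points for the 3 experiments, and a dotted line at the median of all probe sets. The E2f2 intervals begin at 0.80 and 0.83, and those of the other 14 probe sets include 0.

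The repressors E2f4, E2f5 and E2f6 did not pass in any of their 6 probe sets. E2f4, with 1 probe set, gave 6.39, 6.29 and 6.21 in E47 and 6.19, 6.23 and 6.20 in control replicates 1 to 3, a log2 fold change of 0.09 (95% interval -0.12 to 0.30). Its groups overlapped narrowly, since E47 replicate 3 lay below control replicate 2. E2F4 is the main partner of p130 in resting cells.

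E2f5, which encodes the other pocket protein partner among the repressors, had 3 probe sets. The brightest, 1417444_at, gave 8.69, 8.17 and 8.78 in E47 and 8.61, 8.15 and 8.52 in control replicates 1 to 3, a log2 fold change of 0.12 (95% interval -0.10 to 0.34). Replicate 2 was the lowest of each group, and the same held in 1460207_s_at, with 7.94, 7.61 and 8.22 in E47 and 7.87, 7.68 and 8.09 in control replicates 1 to 3. The ending _s_at marks probes shared between transcripts. The third probe set, 1447625_at, had no such low values in replicate 2, and its log2 fold change was -0.11 (95% interval -0.40 to 0.17).

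E2f6 gave 9.09, 9.08 and 8.98 in E47 and 8.94, 9.13 and 9.06 in control replicates 1 to 3 with probe set 1448835_at, a log2 fold change of 0.01 (95% interval -0.22 to 0.23). With 1437914_at the log2 fold change was 0.07 (95% interval -0.14 to 0.29). The groups overlapped in both, and the largest value of 1437914_at was 7.73 in E47 replicate 1.

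The atypical members E2f7 and E2f8 were higher with E47 in all 3 pairs but did not pass. E2f7 gave 8.38, 9.22 and 8.16 in E47 and 8.17, 8.21 and 8.06 in control replicates 1 to 3. The pair differences were 0.22, 1.00 and 0.10, so most of the mean of 0.44 (SE 0.18, 95% interval -0.02 to 0.90, adjusted p = 0.566 in limma's paired fit) came from E47 replicate 2. Without experiment 2 the log2 fold change was 0.16. Whether E2f7 responded more in experiment 2 could not be tested, since each experiment held 1 sample per group.

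E2f8 gave 9.82, 10.23 and 9.70 in E47 and 9.68, 9.95 and 9.58 in control replicates 1 to 3 with its bright probe set 1436186_at. The pair differences were 0.15, 0.28 and 0.12, a log2 fold change of 0.18 (SE 0.09, 95% interval -0.03 to 0.39, adjusted p = 0.599). Its other probe set, 1444319_at, was dim, with 40.3% of all probe sets below it, and had a log2 fold change of 0.13. E2f7 and E2f8 are themselves genes that activator E2Fs switch on.

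The 3 experiments were compared next, each by the mean of its E47 and control arrays, so a high value in 1 group also enters. E2f2 was 0.89 higher on the log2 scale in experiment 2 than in the mean of experiments 1 and 3, E2f7 0.52, E2f8 0.40 and E2f1 0.27 higher, while E2f5 was 0.48 lower, each by its brightest probe set. For E2f7 this came mainly from E47 replicate 2 at 9.22, while its control replicates 1 to 3 had 8.17, 8.21 and 8.06. E2f3, E2f4 and E2f6 differed by -0.08, 0.01 and 0.09. In the F test of experiment over all genes, E2f2 passed (adjusted p = 0.0230) and E2f5 (0.0872) and E2f8 (0.115) did not, where 3.2% of all genes were called. Over all probe sets 0 of the 16 passed in limma, where 0.604% were called, and 5 of the 16 had an unadjusted p under 0.05, as did 12.7% of all probe sets.

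Replicate 2 was thus the highest array of its group for E2f2 in both probe sets, and the control array of experiment 2, at 8.84 in 1436434_at, lay close to the E47 array of experiment 3, at 8.96. Other genes differed between experiments as well. The adjusted p values given here are from limma's F test over all 3 experiments, not from a test of experiment 2 alone. Of the genes around E2F counted in lists below, it called 1 of 5 pocket proteins and DP partners. It also called 2 of 15 G1 cyclins, kinases and inhibitors and 2 of 38 G1/S targets of E2F. In each other list of such genes it called 0, and of all genes it called 3.2%. Cdkn2c, which encodes the CDK inhibitor p18, was 0.98 higher in experiment 2 than in the mean of experiments 1 and 3 (adjusted p = 0.00850). Rbl1, which encodes p107, was 0.58 higher (adjusted p = 0.0427). Cdkn1a, which encodes the CDK inhibitor p21, was 0.75 lower (adjusted p = 0.0291). Foxp3 was 1.71 higher (adjusted p = 0.00262), although the 5 Treg markers had a median of 0.02 and 2 of them were lower. Klrd1, an NK cell marker, was 1.58 higher (adjusted p = 0.0108) and Cd8a, a marker of CD8 T cells, 0.87 higher (adjusted p = 0.0289). The B cell marker Ms4a1 was 0.68 higher (adjusted p = 0.0491). Each was the 1 called member of its list. The 3 NK markers had a median of 0.34 and 1 was lower, the 2 CD8 markers had a median of 0.63 and the 5 B cell markers of 0.21. Mouse age differed by experiment too, and its part cannot be told apart from that of the experiment.

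**Figure D3:**
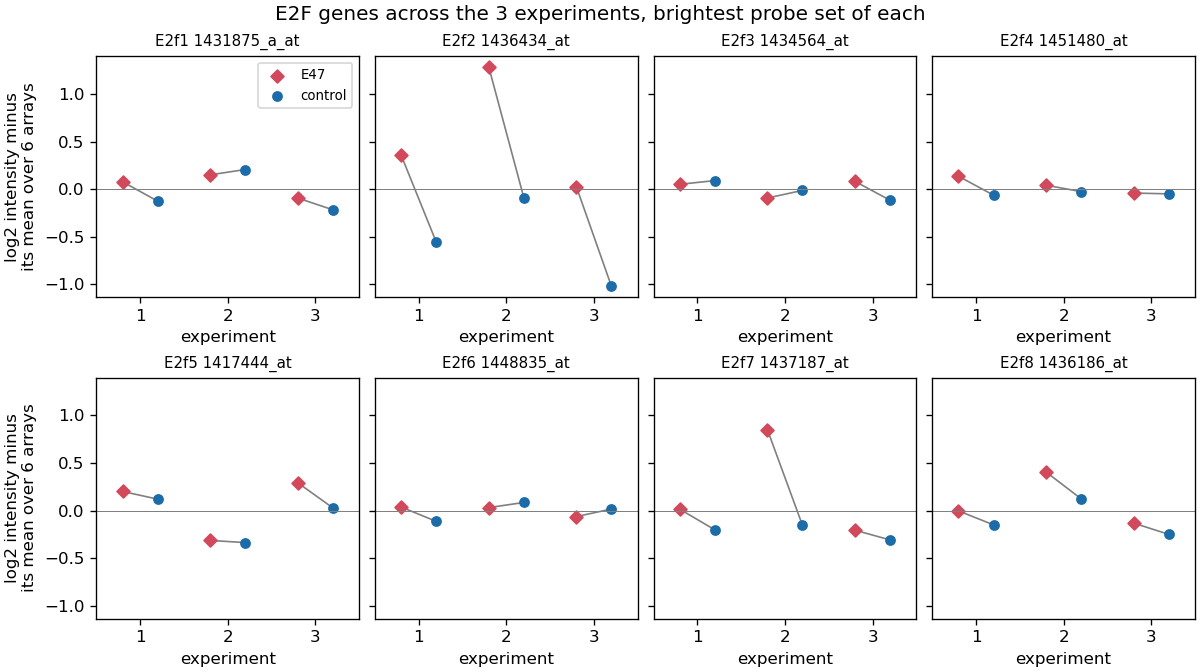
Log2 intensity of the brightest probe set of each E2F gene, minus its mean over the 6 arrays, by experiment, with diamonds for E47, circles for control and a line joining the arrays of an experiment. E2f2, E2f7 and E2f8 are highest in E47 replicate 2, and E2f5 is lowest in experiment 2.

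The genes of closest pattern to E2f2 were sought by the root mean square difference of centred log2 values over the 6 arrays. Among 628 genes with a range of at least 1/2 that of E2f2, which was 2.30, the closest was A930006K02Rik at 0.12. Ly6e, a surface protein anchored by a lipid, followed at 0.14, then Ptpre, a tyrosine phosphatase, at 0.16. Pxmp4, a peroxisomal membrane protein, was at 0.17 and Ikzf3, which encodes the lymphoid zinc finger factor Aiolos, at 0.17. Of these, A930006K02Rik had an adjusted p of 0.0531 in the paired fit, and the other 4 were called higher. They were chosen for likeness to E2f2 on these same arrays, so their rise follows largely from that choice and is no separate result. Within the family the gene nearest to E2f2 was E2f7, at a difference of 0.41, and the farthest was E2f5, at 0.84. The closest pair was E2f4 and E2f6, at 0.07. No limit on range was set within the family, so genes that vary little lie close together, as these did.

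Genes that act with or under E2F were counted in 7 lists, 107 of 115 genes measured. Of these, 2 were called higher and 0 lower in limma's paired fit, beside the 1.14% called among all genes. Both called genes were in the list of death genes under E2F1. An unadjusted p under 0.05, counted below for each list, was reached by 12% of all genes in the paired fit and by 6.6% without the pairing. The lists are given in the order of regulators, partners and targets.

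The kinases and inhibitors that release or hold pocket proteins had 0 of 15 members called (2 at an unadjusted p under 0.05 in the paired fit, 1 without the pairing), with a median log2 fold change of 0.09. Cdk6, a kinase that works with D cyclins, had -0.46 (SE 0.14, adjusted p = 0.283), lower in 3 of 3 pairs, and the G1/S cyclin Ccne2 had 0.20 (SE 0.08, adjusted p = 0.392). Pocket proteins and DP partners had 0 of 5 called (0 unadjusted, 1 without the pairing) and a median of 0.08. Rb1, the retinoblastoma gene, had 0.27 and Rbl1 0.12. The DREAM and MuvB complex, which joins E2F4, pocket proteins and cell cycle genes, had 0 of 8 called (1 unadjusted, 0 without the pairing) and a median of 0.15, with Lin54 at 0.29 and Lin9 at 0.19. The E2F6 repressor complex had 0 of 11 called (1 unadjusted, 1 without the pairing) and a median of -0.03, with Cbx3 at -0.20 and L3mbtl2 at -0.15. Cbx3 was the dimmest of the 11, with mean log2 intensities of 5.23 in E47 and 5.43 in control samples.

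Of 38 G1/S targets of E2F, 0 were called (4 at an unadjusted p under 0.05 in the paired fit, near the share of all genes, and 0 without the pairing). A log2 fold change above 0 was found in 30. Their median was 0.08 on the log2 scale, against -0.03 for all genes. Rfc3, a clamp loader subunit, had 0.34 (SE 0.08, adjusted p = 0.149) and Dck, a kinase that salvages deoxynucleosides, 0.38 (SE 0.10, adjusted p = 0.199), both higher in 3 of 3 pairs. Of 23 G2/M genes 0 were called (4 unadjusted, 0 without the pairing), 20 were above 0 and the median was 0.09. Nusap1, a spindle protein, had 0.31 and the kinesin Kif11 0.23. Both lists also stood higher in experiment 2, with medians 0.14 and 0.22 above the mean of experiments 1 and 3 on the log2 scale, where all genes had -0.01.

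Among 7 death genes that E2F1 can activate, 2 were called higher, with a list median of 0.04, where 0.781% of all genes were called higher. The list was chosen with earlier results of these data known, so this count is no separate result. Whether E2F1 had a part in it was not tested. Bcl2l11, which encodes Bim, was 4.32-fold higher in E47 (adjusted p = 0.00111) and Pmaip1, which encodes Noxa, 1.62-fold higher (adjusted p = 0.0276). Without the pairing Bcl2l11 passed (adjusted p = 0.0444) and Pmaip1 did not (0.594). Apaf1, the scaffold of the apoptosome, had a log2 fold change of 0.13 and Hrk, a death-promoting BH3 protein, of -0.14, and neither passed.

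**Figure D4:**
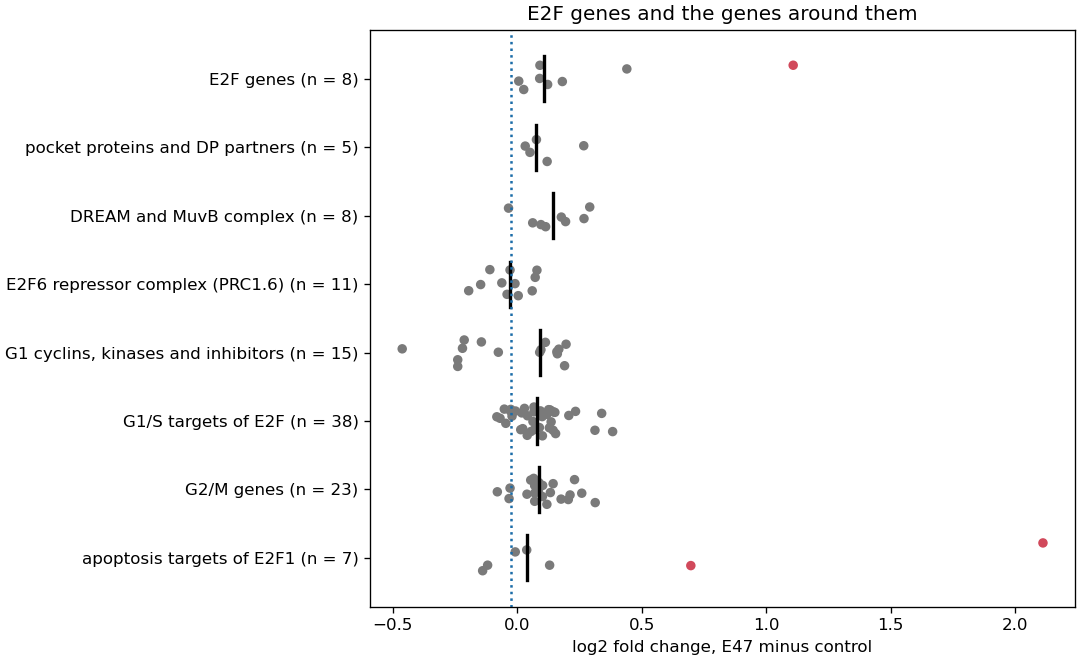
Log2 fold change of E47 over control for the E2F genes and for the 7 lists around them, 1 point per gene with random vertical spread, red where the adjusted p of the paired gene fit passed, a black bar at each list's median and a dotted line at the median of all genes. E2f2, Bcl2l11 and Pmaip1 are the called genes, and the list medians lie between -0.03 and 0.15.

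Markers of other cells were set beside E2f2, although CD8 T, B, NK and myeloid cells should be largely removed by the purification of CD4+CD25- cells and the CD4+Thy1.1+ sort. The 2 CD8 markers summed to 188.8 to 326.9 intensity units in E47 and 140 to 209 in control samples. Both were higher in E47 in 3 of 3 pairs, Cd8b1 by 0.51 (adjusted p = 0.185) and Cd8a by 0.24 (adjusted p = 0.462), and neither passed. The 3 NK markers summed to 501.7 to 866.3 in E47 and 955.5 to 1524.5 in control samples. Nkg7, the brightest of them, was lower (log2 fold change -0.97, adjusted p = 0.0193 in the paired fit), but did not pass without the pairing (adjusted p = 0.13). Klrd1 had -0.04, higher in 2 of 3 pairs, and Ncr1 -0.12, and neither passed. Ncr1 was dim, with mean log2 intensities of 3.73 in E47 and 3.85 in control samples, and adds little to the sum. The 5 B cell markers summed to 147 to 175.7 in E47 and 148.8 to 198.1 in control samples, and the 6 myeloid markers to 171.6 to 187.6 in E47 and 196.4 to 207.4 in control samples. Of the 6 T cell markers, with sums of 18208.2 to 21241.8 in E47 and 17362.6 to 20366.7 in control samples, and the 5 Treg markers, with 9874.6 to 11941.7 in E47 and 12095.4 to 13547.2 in control samples, 0 were called. At an unadjusted p under 0.05 these lists had 3 and 1 members in the paired fit, where 12% of all genes passed. Of the 5 Treg markers, 0 had a log2 fold change above 0 and 3 were lower in E47 in all 3 pairs. Their median was -0.22, against -0.03 for all genes. The part of cell composition in the E2f2 difference was not tested, and in bulk RNA a larger share of cells with E2f2 and more E2f2 RNA per cell cannot be told apart.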

How the data were processed

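RNA of 6 cell samples was hybridised to Affymetrix mouse expression arrays, 3 E47 and 3 control. The deposited values were linear-scale intensities, 1 for each probe set on an array, made with RMA per the submitters' processing notes, with no version given. Array medians lay between 34.3 and 35.3. Arrays have no sequencing depth, and having 3 per group limits the precision. Log2 was taken here, 64 control probe sets were left out, and 45037 probe sets were tested, of which 34945 had 1 gene symbol in the platform annotation. For the gene fit, each of 18193 genes was represented by its probe set of highest mean.

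Groups and replicate numbers came from the titles. Limma 3.58.1 in R 4.3.3 (lmFit, eBayes, two-sided, Benjamini-Hochberg over the whole table, threshold 0.05) was fitted with group and experiment as terms, called the paired fit. The same model with group alone was an alternative. Where the pairing comes from is the design text, which gives 3 independent experiments with 1 set of samples each. Over all probe sets, deviations from the group means correlated at 0.088, 0.52 and 0.31 for same-numbered arrays, and at -0.43 to 0.22 for the others. Both fits were tested on simulated data. No scan date or slide was given.

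The members, the lists of related genes and the fits were chosen with earlier results of these data known. Named genes were all members, Tcf3, Id2, Id3, the 5 genes of closest pattern to E2f2, the called members of each list, and the 2 uncalled members of lowest p in each list. In the marker lists that rule covers Nkg7, Klrd1, Ncr1, Cd3g, Cd5, Foxp3, Cd8a and Cd8b1, and the other genes it picks there are given within their list's range. Cdkn2c, Cdkn1a, Cd4, Cd2 and Ms4a1 were named outside it, after their values were seen. Promoter windows came from RefSeq (GRCm38.p6). Alternatives were the block (none or random), median centring, quantile normalization, an offset of 32 before log2, probe sets above the median alone, an intensity trend, other choices of probe set, and each experiment left out.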

Additional observations from a re-analysis of the deposited data

How the results depend on the processing

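The rise of E2f2 kept its direction in every alternative run, with log2 fold changes between 0.95 and 1.21, while its call depended on the pairing and on single experiments. Without the replicate block, and also with a random block, 0 E2F probe sets and 0 E2F genes were called in limma (2 and 1 at an unadjusted p under 0.05 without the block), with 1 list member, Bcl2l11, in each. Of all 45037 probe sets and 18193 genes, 52 and 45 were called without the block, and 95 and 92 with a random block. With an offset of 32 before log2, 0 E2F probe sets were called (E2f2 at adjusted p = 0.100 and 0.117), although the gene passed (0.0309). That offset called 38 of all probe sets and 178 of all genes. Leaving out 1 experiment gave 0 to 2 called E2F probe sets, 0 to 1 genes and 1 to 2 list members. The experiment effect was called in 0 to 2 probe sets when 1 experiment was left out, in 1 among probe sets brighter than the median and in 4 with an intensity trend. The trend also called 5 list members, adding Dck, Rfc3 and Ezh2, while calls over all probe sets rose to 558 and over all genes to 547. Differences near 0 changed sign and none was called. Quantile normalization gave 0.006 for E2f1 1447840_x_at and -0.011 for E2f6 1448835_at in both fits, and the mean of its probe sets gave -0.049 for E2f3. With 1 experiment left out, E2f1 1447840_x_at lay between -0.058 and 0.041, E2f3 1434564_at between -0.060 and 0.079, E2f5 1460207_s_at between -0.001 and 0.099 and E2f6 1448835_at between -0.067 and 0.048. Median centring changed no call. The cause of these changes was not tested.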
